A study of Homo sapiens with 7 samples.

Results

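The comparison described here set edited line 2 against edited line 1 of K562, cells grown from a human chronic myelogenous leukemia, using the raw read counts of all genes in the 2 libraries of each line, 4 libraries of 7 in all. The lines have the same genotype label, so the comparison asks how far 2 lines with the same edit differed in their RNA. In both lines the histone demethylase LSD1, product of KDM1A, carried GFP; 2 alleles had the substitution Y391K and 1 allele was wild type. The parental K562 cells, with wild-type LSD1-GFP only, gave 3 libraries that serve here as the reference level and enter the estimate of the spread. The series' design text calls the substitution a gain-of-function change.

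Every group was grown in RPMI1640 with 10% fetal bovine serum and 2 mM glutamine at 37 °C and 8% CO2, and had no other agent or allele in its labels. Poly-A RNA was sequenced. The labels name the edited cells 1 and 2 and do not say whether each line grew from a single cell. Nor do they give separate cultures for the libraries of a line, so the p-values measure the spread between these libraries, which may be technical. RNA came from whole cultures, so a lower level in every cell and a loss in a share of the cells cannot be told apart.

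K562 cells carry the BCR-ABL1 fusion and sit between the red cell and platelet branches of blood development, with some features of myeloid cells. Their genome is known for extra and rearranged chromosomes, and cultures of the line kept apart are known to differ. LSD1 removes methyl groups from lysine 4 of histone H3, mostly in complexes with CoREST and histone deacetylases that hold genes silent, and in blood precursors it works with GFI1 and GFI1B. Cells grown out after editing may carry differences that their ancestors already had, and a set of lines shows how much of a profile is common to an edit.

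Total counts were 37150995 and 40547524 in line 1 (libraries 1-1 and 1-2), 69468590 and 39195148 in line 2 (2-1 and 2-2), and 35841302 to 72577827 in the parental libraries. CPM here is each count over the library's total, scaled by TMM. Before that scaling, 3 counts corresponded to 0.0413 to 0.0837 CPM. The 13 K562 markers, among them the globins, GATA1, BCR and ABL1, were all at or above 2 CPM. Endothelial markers summed to at most 0.0742 CPM in any library, and KRT5 and CD8A were at 0 in all 7. Epithelial keratins were present in each library, with KRT8 at 179 and 286 CPM in line 1 and 247 and 494 CPM in line 2. The 10 stromal and epithelial markers summed to 432 and 587 CPM in line 1, 559 and 934 CPM in line 2 and 418 to 488 CPM in parental cells. PTPRC, the leukocyte antigen CD45, made up most of the 8 lymphoid markers, which summed to 137 CPM in both line 1 libraries, 75.7 and 58.6 CPM in line 2 and 164 to 387 CPM in parental cells.

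The edited gene itself was alike in the lines. KDM1A (ENSG00000004487, 1p) stood at 278 and 320.1 CPM in line 1 and 244 and 318 CPM in line 2, against 237, 278 and 348 CPM in the parental libraries. The libraries of the groups overlapped (log2 fold change -0.09 for line 2 against line 1, SE 0.21, adjusted p 0.891 by edgeR's quasi-likelihood F test and Benjamini-Hochberg). The substitution lies in the coding sequence, so this level is no check of the genotype. Throughout, a log2 fold change above 0 means higher in line 2, and a gene passed at an adjusted p under 0.05 over all 19098 genes tested.

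The lines differed by more than the libraries of either line differed from each other. Over the 12090 genes at or above 2 CPM, the median size of the log2 difference was 0.193 between the libraries of line 1 and 0.225 between those of line 2, against 0.249 to 0.351 for the 4 pairs taken across the lines. Differences over 2-fold were more sharply divided, with 254 genes within line 1, 341 within line 2 and 1032 to 1453 across the lines. Parental libraries, which share 1 label, also reached that range. The median was 0.131 between parental 1 and 2, and 0.304 and 0.323 between these and parental 3. Genes over 2-fold numbered 76, 1041 and 1187 in the same order. These are descriptions of library pairs and were not tested.

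Of 19098 genes tested, 1249 passed, which is 6.54%: 454 genes (2.38%) were higher and 795 (4.16%) lower in line 2. Many of the differences were large. The fold was at least 4 for 199 of the higher and 387 of the lower genes, and at least 16 for 85 and 175. All 1249 had line 1 and line 2 libraries that did not overlap, as did 51.4% of all genes tested. The median log2 fold change over all genes tested was 0.01. The number that passed was 387 without library 1-1, 491 without 1-2, 465 without 2-1 and 400 without 2-2. It was 2344 without parental 3. That library stood apart from the other parental libraries with 1041 and 1187 genes different by more than 2-fold from parental 1 and 2.

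**Figure D1:**
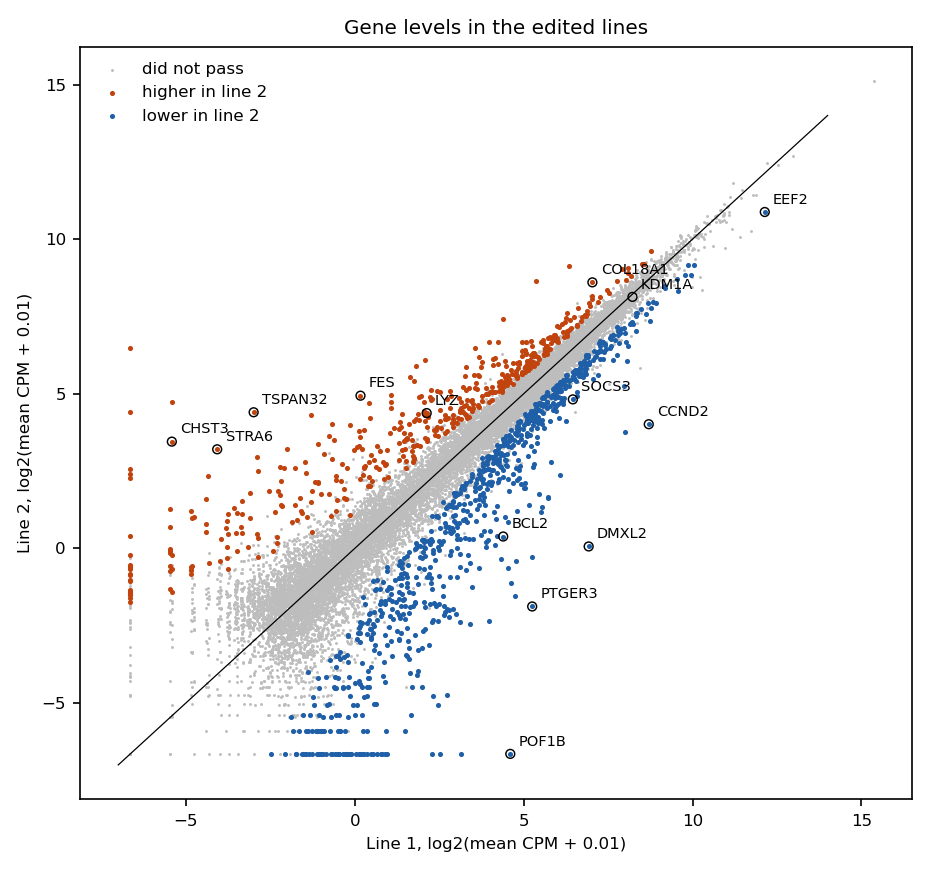
Mean level of each tested gene in line 1 (horizontal axis) and line 2 (vertical axis), both as log2(mean CPM + 0.01) over 2 libraries; the diagonal is equality, colours mark the 454 genes higher and the 795 lower in line 2, and circles mark named genes. Genes on the lower edge, POF1B among them, had 0 counts in line 2, and KDM1A lies on the diagonal.

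The genes lower in line 2 included a set that was all but lost from it. PTGER3 encodes the EP3 receptor for prostaglandin E2. PTGER3 (ENSG00000050628, 1p) stood at 39.1 and 37.2 CPM in line 1 and 0.192 and 0.332 CPM in line 2, against 32.9, 28.7 and 41.7 CPM in parental cells (log2 fold change -7.25, SE 0.33, adjusted p 1.85e-05). Line 1 thus lay within the parental range and both line 2 libraries far below every other library. DMXL2, rabconnectin-3 alpha, helps assemble the proton pump of acidic vesicles. DMXL2 (ENSG00000104093, 15q) stood at 145 and 98.3 CPM in line 1 and 1.30 and 0.767 CPM in line 2, with 108, 114 and 130.1 CPM in parental cells (log2 fold change -6.83, SE 0.32, adjusted p 1.85e-05). In this gene too both line 2 libraries lay far below every other library. The adhesion G protein-coupled receptor GPR126 had 28.3 and 21.2 CPM in line 1 and 0.549 and 0.358 CPM in line 2 around a parental 10.9, 9.85 and 8.71 CPM (log2 fold change -5.73, SE 0.33, adjusted p 6.14e-05).

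SYTL5, a Rab27-binding protein of secretory vesicles, stood at 10.01 and 3.31 CPM in line 1 and 0.0549 and 0 CPM in line 2. The other protein-coding genes among the largest falls were DDX60L, a relative of the antiviral helicase DDX60, FAM155A, a partner of a sodium leak channel, and the zinc finger gene ZNF711. They also included FAM64A, which is known from dividing cells, TBCEL, a tubulin chaperone-like protein, the testis antigen PASD1, and COLGALT2, which glycosylates collagen. Their log2 fold changes ran from -7.50 for SYTL5 to -5.08 for COLGALT2, and none exceeded 1.36 CPM in a line 2 library. COLGALT2 was lower than in the parental cells in both lines, at 127, 108 and 42.2 CPM in parental cells and 26.8 and 19.4 CPM in line 1 and 0.961 and 0.307 CPM in line 2. All 12 protein-coding genes chosen for the largest falls passed in each of the 4 fits that left out 1 edited library, with adjusted p values of at most 0.0214.

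A further 18 genes had 0 counts in both libraries of line 2 and at least 1 CPM in line 1, and 12 of them were protein-coding. A floor of 3 counts over the libraries of line 2 turns each into a lower bound on the fold. POF1B, an actin-binding protein of epithelia, had 24.9 and 23.8 CPM in line 1, against 16.4, 15 and 15.3 CPM in parental cells, and was at least 908-fold lower in line 2. SASH1, a scaffold of Toll-like receptor signalling, had 11.4 and 6.31 CPM in line 1 and 3.99, 2.51 and 3.35 CPM in parental cells, and was at least 327-fold lower. GYG2, a glycogenin that starts glycogen chains, had 6.67 and 4.82 CPM in line 1 (at least 213-fold), and HTR2C, a serotonin receptor, 2.10 and 1.76 CPM (at least 71.7-fold). From 19p, CTD-2006C1.2 and the zinc finger gene ZNF788 completed the 6 with the highest line 1 CPM. For 11 of the 18 the parental mean was itself under 1 CPM, so line 1 was above the parental level in these. The number of genes at 0 depends on depth and was 45 when 2-1, the deeper library, was left out.

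Among the genes with the largest rises in line 2 were CHST3, STRA6, COL23A1 and FES. CHST3, which adds sulfate to chondroitin chains, stood at 0.0269 and 0 CPM in line 1 and 13.7 and 8.15 CPM in line 2, against 1.004, 0.664 and 1.12 CPM in parental cells. CHST3 (ENSG00000122863, 10q) thus lay above the parental libraries in line 2 and below them in line 1 (log2 fold change 9.47, SE 0.74, adjusted p 0.000243). STRA6, the cell-surface receptor for retinol-binding protein, was close to 0 in the parental cells, with 0.217, 0.108 and 0.0606 CPM, and in line 1, with 0 and 0.0990 CPM, and reached 7.82 and 10.6 CPM in line 2 (log2 fold change 7.42, SE 0.83, adjusted p 0.0013). COL23A1, a transmembrane collagen, stood at 0.323 and 0.470 CPM in line 1 and 24.7 and 14.6 CPM in line 2, on either side of the parental 6.29, 6.03 and 4.08 CPM (log2 fold change 5.62, SE 0.43, adjusted p 0.000232). FES, a tyrosine kinase of myeloid cells, stood at 1.29 and 0.940 CPM in line 1 and 39.4 and 22 CPM in line 2 (log2 fold change 4.78, SE 0.37, adjusted p 0.000243). The parental 21.3, 24.6 and 16.7 CPM were far above line 1.

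Other genes with large rises, chosen by the size of their fold, were TSPAN32, PTPN22, UBASH3A, ITGB2 and SIGLEC10. TSPAN32, a tetraspanin of blood cells, stood at 0.108 and 0.124 CPM in line 1 and 24.9 and 17.4 CPM in line 2 (log2 fold change 7.48, SE 0.98, adjusted p 0.00287), and the parental libraries were spread widely at 13.7, 29.5 and 4.50 CPM. PTPN22, a phosphatase that restrains antigen receptor signalling, stood at 0.619 and 0.544 CPM in line 1 and 15.9 and 8.997 CPM in line 2. UBASH3A, a suppressor of T cell receptor signalling, stood at 0.0538 and 0.396 CPM in line 1 and 4.54 and 7.51 CPM in line 2. ITGB2, the common beta chain of leukocyte integrins, stood at 0.699 and 0.223 CPM in line 1 and 12.4 and 8.10 CPM in line 2. For SIGLEC10, an inhibitory sialic acid receptor, the values were 0.753 and 0.470 CPM in line 1 and 17.2 and 15 CPM in line 2. In these 4 genes no line 1 library reached 1 CPM and every line 2 library was at 4 CPM or more, with log2 fold changes of 4.42, 4.70, 4.48 and 4.72. DAPP1, an adaptor that binds phosphoinositides (5.24), and ANKRD33B, an ankyrin-repeat gene (6.94), complete the 12 largest with SLC4A1, described with the red cell genes. The lymphoid markers CD3E, CD4 and CD79A were each under 0.3 CPM in every library. Of all 8 lymphoid markers 3 were tested, with 2 above 0, 1 below and none that passed (median log2 fold change 0.89). A mean of at least 2 CPM in the edited libraries was reached by 2 of them. The part of lymphoid markers in the result was not tested. With 1 edited library left out, the calls of ITGB2 and SIGLEC10 were lost in all 4 fits, and those of PTPN22 and UBASH3A in 2. Over these fits the log2 fold changes were 3.96 to 4.77 for PTPN22 and 3.92 to 6.75 for UBASH3A. They were 3.88 to 5.52 for ITGB2 and 4.42 to 5.10 for SIGLEC10. Below, brackets after a lost call give the highest adjusted p over the 4 fits and the library left out. A call listed in this way may also have been lost without other libraries.

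In the other direction, 6 genes had 0 counts in both libraries of line 1 and at least 1 CPM in line 2. C11orf21, which lies beside TSPAN32, had 7.59 and 4.27 CPM in line 2 and 4.29, 8.27 and 1.29 CPM in parental cells, and was at least 166-fold higher in line 2 against 3 counts over the libraries of line 1. LGALS12, a galectin of fat and myeloid cells, was on in line 2 alone, with 5.20 and 4.55 CPM against 0, 0.341 and 0.243 CPM in parental cells (at least 129-fold). The other 4 were not protein-coding. GS1-600G8.3, an antisense transcript of Xp, was the most prominent, with 107 and 70.1 CPM in line 2 and 57.4, 51.4 and 43.1 CPM in parental cells (at least 2439-fold). Next to it on Xp, the pseudogene GS1-600G8.4 had 0.0269 and 0 CPM in line 1 and 31.7 and 21.2 CPM in line 2. The lincRNA RP11-142G7.2, also of Xp, was at 0 in line 1 and at 25.8 and 17.1 CPM in line 2. The kit keeps the strand of the RNA, but the sources used here do not give the strand setting of the counting, so reads of antisense and overlapping genes may be mixed. The count of such genes was 12 without library 1-1, 17 without 1-2 and 10 without 2-2.

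The promoters of 4 genes at or near 0 in one line are shown for their sequence context. Whether K562 cells start these genes there was not analysed here. Each window runs 5′ to 3′ in the direction of the gene, 300 bases from 250 before to 50 after the start annotated by RefSeq on GRCh38.p14, with CpG dinucleotides (CG) in capitals. The gene DMXL2, near 0 in line 2, has its window at chr15:51622722-51623021, minus strand. CHST3, near 0 in line 1, has its window at chr10:71964145-71964444, plus strand. For C11orf21, at 0 in line 1, it is chr11:2303091-2303390, minus strand, and for POF1B, at 0 in line 2, chrX:85379616-85379915, minus strand.
DMXL2: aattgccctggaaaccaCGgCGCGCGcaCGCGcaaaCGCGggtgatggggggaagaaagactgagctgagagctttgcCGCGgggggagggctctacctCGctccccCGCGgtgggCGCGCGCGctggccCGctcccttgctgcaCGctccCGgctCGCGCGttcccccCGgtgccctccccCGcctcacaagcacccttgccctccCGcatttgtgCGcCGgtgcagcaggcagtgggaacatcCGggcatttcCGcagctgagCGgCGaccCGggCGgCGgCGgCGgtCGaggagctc
CHST3: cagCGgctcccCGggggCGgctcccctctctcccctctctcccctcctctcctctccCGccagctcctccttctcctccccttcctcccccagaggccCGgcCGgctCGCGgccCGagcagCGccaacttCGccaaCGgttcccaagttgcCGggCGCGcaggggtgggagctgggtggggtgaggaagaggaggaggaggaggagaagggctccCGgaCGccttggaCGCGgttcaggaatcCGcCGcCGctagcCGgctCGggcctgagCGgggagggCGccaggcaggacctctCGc
C11orf21: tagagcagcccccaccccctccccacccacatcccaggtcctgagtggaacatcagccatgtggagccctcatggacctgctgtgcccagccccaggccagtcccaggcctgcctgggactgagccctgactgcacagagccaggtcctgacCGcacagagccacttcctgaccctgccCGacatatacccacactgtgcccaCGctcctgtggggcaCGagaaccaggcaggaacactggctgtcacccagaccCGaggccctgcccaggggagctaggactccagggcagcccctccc
POF1B: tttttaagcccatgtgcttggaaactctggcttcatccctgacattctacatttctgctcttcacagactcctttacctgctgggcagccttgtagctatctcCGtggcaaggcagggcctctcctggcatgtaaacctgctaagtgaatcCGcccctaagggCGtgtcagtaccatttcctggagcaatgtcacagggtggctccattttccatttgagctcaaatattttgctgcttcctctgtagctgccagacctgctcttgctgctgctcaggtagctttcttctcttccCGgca
The DMXL2 window holds 38 CpG and the CHST3 window 27, more than the median of 14 over all 35116 windows of that table, of which 96.0% hold at least 1. The windows of C11orf21 and POF1B hold 5 and 4. Genes at or near 0 in one line thus included CpG-rich and CpG-poor promoters. DNA methylation was not analysed here, and the counts of CpG describe these windows only.

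Set against the parental cells, the line that stood apart depended on the direction. Of the 795 genes lower in line 2, the mean of the parental libraries lay nearer to line 1 for 664 and nearer to line 2 for 131. Of the 454 genes higher in line 2, it lay nearer to line 2 for 275 and nearer to line 1 for 179. Against parental cells, 1078 genes (5.64%) passed in line 2, 259 (1.36%) of them higher and 819 (4.29%) lower, and 335 (1.75%) in line 1, 93 (0.487%) higher and 242 (1.27%) lower; these comparisons share the parental libraries.

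Cell cycle and survival genes held one of the most marked differences among genes of high CPM. CCND2 encodes cyclin D2, which drives entry into the cell cycle with CDK4 and CDK6. CCND2 (ENSG00000118971, 12p) stood at 402 and 433 CPM in line 1 and 18.2 and 14.1 CPM in line 2, against 379, 347 and 362 CPM in parental cells (log2 fold change -4.69, SE 0.19, adjusted p 1.85e-05). Line 1 was just above the parental libraries and line 2 far below every other library. CCND3, cyclin D3, was higher in line 2, at 87 and 91.4 CPM in line 1 and 158 and 196 CPM in line 2 (log2 fold change 0.99, SE 0.16, adjusted p 0.00725), with the parental 119, 131 and 126 CPM in between. CDK6 was lower in line 2, at 103 and 127 CPM in line 1 and 46.7 and 53.3 CPM in line 2 against 107, 104 and 79.9 CPM in parental cells (log2 fold change -1.20, SE 0.19, adjusted p 0.0074). These 3 were the members that passed among 19 tested genes of the cyclin D, cyclin E and RB group (median log2 fold change 0.17). Their share was 15.8%, against 6.54% of all genes.

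BCL2, the founding inhibitor of apoptosis, stood at 28.3 and 13.8 CPM in line 1 and 1.65 and 0.946 CPM in line 2, against 30.5, 18.9 and 12.7 CPM in parental cells, so that line 2 was below all other libraries (log2 fold change -3.99, SE 0.53, adjusted p 0.00298). The proapoptotic PMAIP1, or NOXA, was also lower, at 30.4 and 25.9 CPM in line 1 and 16.7 and 12.6 CPM in line 2 (log2 fold change -0.94). BNIP3L, a receptor for removal of mitochondria, was higher, at 60.9 and 60.6 CPM in line 1 and 102 and 138 CPM in line 2 (0.98). BNIP3L lies on 8p, an arm described below. The other 15 of 18 BCL2 family genes tested did not pass, so the share that passed was 16.7% against 6.54% of all genes. None of 37 mitosis genes passed, with a median of -0.05. Of 37 DNA replication genes POLA1, of Xp, was higher (0.74) and CHAF1A, of 19p, lower (-0.76), so 5.41% passed. Over the fits without 1 edited library CCND2 and BCL2 passed each time. The other calls were each lost at least once, those of CCND3 (0.082 without 1-1), CDK6 (0.0698 without 2-1), PMAIP1 (0.201 without 1-1), BNIP3L (0.281 without 2-2), POLA1 (0.296 without 1-1) and CHAF1A (0.132 without 1-2).

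**Figure D2:**
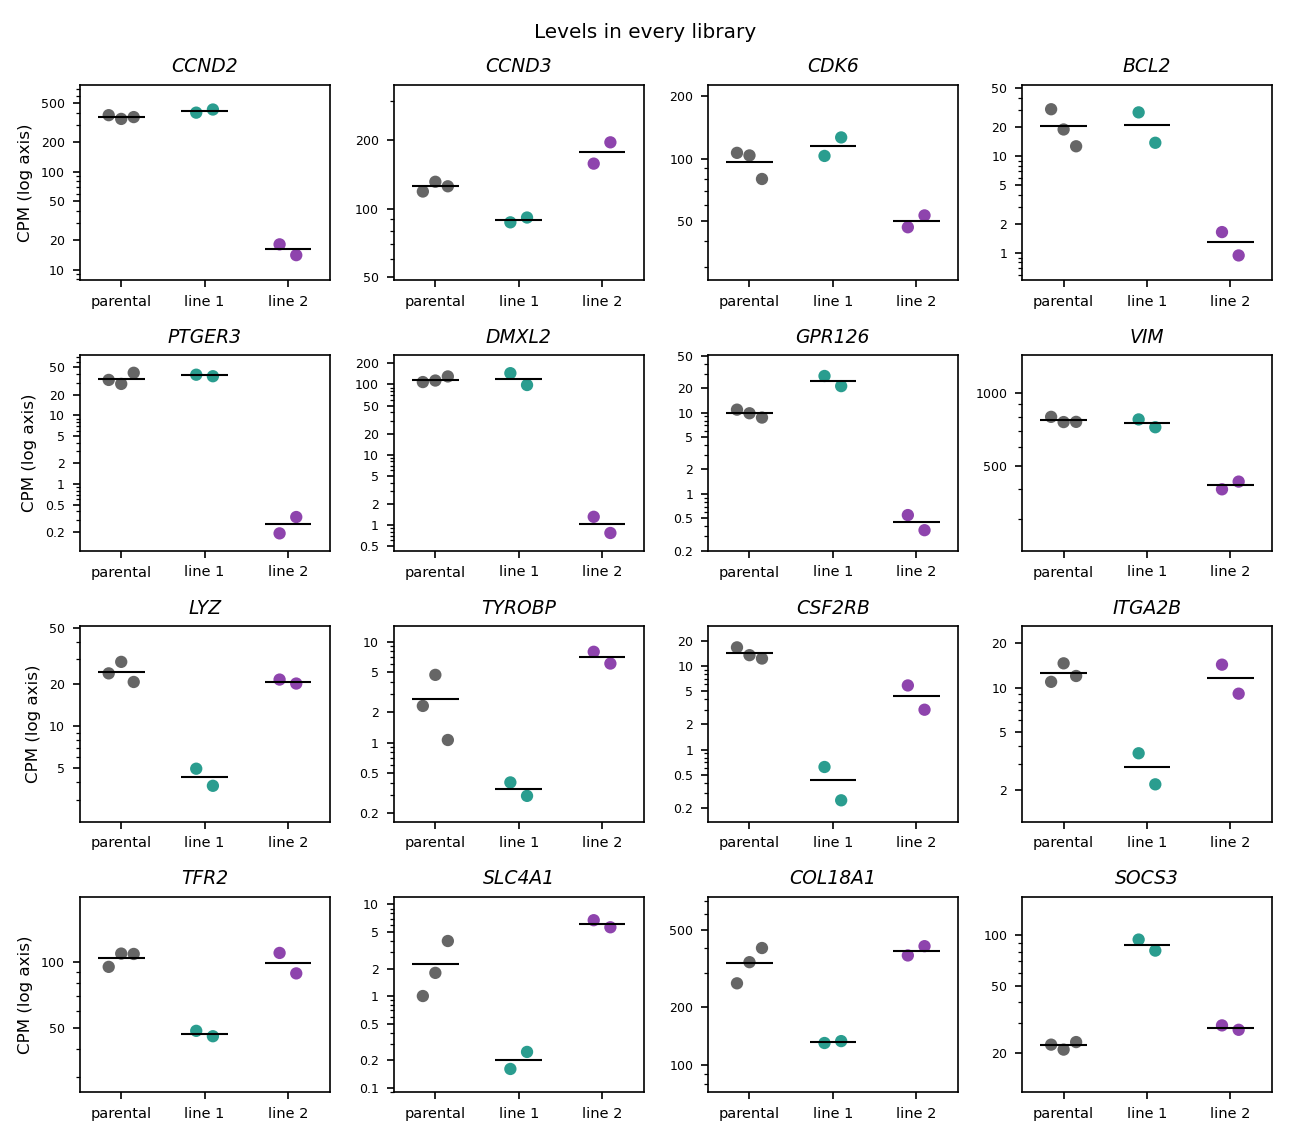
Level of 16 genes in each library as CPM on a log axis, by group (3 parental libraries, 2 of line 1, 2 of line 2); points are libraries and bars are group means. CCND2, BCL2, PTGER3, DMXL2 and GPR126 are low in line 2 only, LYZ, CSF2RB, TFR2 and COL18A1 are lowest in line 1, and SOCS3 is high in line 1.

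Blood lineage genes are given by branch, as counts with no test of the lists. In the granulocyte and monocyte group, 5 of 19 tested genes were higher in line 2 and none lower (26.3% against 6.54% of all genes; median log2 fold change 0.72). The libraries within a line also differed in this list, replicate 1 lying above replicate 2 by a median log2 difference of 0.45 in line 1 and 0.66 in line 2. LYZ, lysozyme, stood at 4.98 and 3.76 CPM in line 1 and 21.4 and 20.1 CPM in line 2, against 23.7, 28.7 and 20.6 CPM in parental cells, so that line 1 alone was low (log2 fold change 2.25, SE 0.24, adjusted p 0.00108). CSF2RB, the signalling chain shared by the receptors for IL-3, IL-5 and GM-CSF, stood at 0.619 and 0.247 CPM in line 1 and 5.83 and 2.99 CPM in line 2, both below the parental 16.6, 13.4 and 12.2 CPM (log2 fold change 3.36, SE 0.48, adjusted p 0.00492). TYROBP, the adaptor DAP12 of myeloid receptors, stood at 0.403 and 0.297 CPM in line 1 and 7.92 and 6.06 CPM in line 2 (log2 fold change 4.31). CYBA, a subunit of the phagocyte oxidase, stood at 49.2 and 56.8 CPM in line 1 and 79.7 and 94.4 CPM in line 2 (0.72). In all 5 genes that passed, both line 2 libraries were above both line 1 libraries. This held for all 454 genes that passed as higher, and for 25.1% of all genes tested. The 6 members at 0 in all edited libraries and the 8 others that entered no test say nothing of the direction. LYZ and CSF2RB passed with each edited library left out. In at least 1 fit a call was lost for TYROBP (0.0602 without 1-2) and CYBA (0.301 without 1-1).

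Megakaryocyte and platelet genes had 5 of 24 tested members higher and 1 lower (25% against 6.54% of all genes; median 0.35). ITGA2B, the alpha chain of the platelet fibrinogen receptor, stood at 3.55 and 2.18 CPM in line 1 and 14.3 and 9.07 CPM in line 2, and the parental 10.9, 14.6 and 12 CPM overlapped line 2 only (log2 fold change 2.03, SE 0.34, adjusted p 0.00918). RASGRP2, the activator of platelet RAP1, stood at 3.50 and 3.24 CPM in line 1 and 21.5 and 13.5 CPM in line 2 (log2 fold change 2.38). The other higher members were SRGN, GP6 and ARHGAP6. SRGN, the granule proteoglycan serglycin, had 0.323 and 0 CPM in line 1 and 3.83 and 3.37 CPM in line 2. GP6, the platelet collagen receptor, had 1.05 and 1.88 CPM in line 1 and 9.51 and 4.93 CPM in line 2, and ARHGAP6, a GTPase-activating protein encoded on Xp, had 55.4 and 43.1 CPM in line 1 and 95.3 and 81.1 CPM in line 2. The exception was P2RY1, a platelet receptor for ADP, at 27.9 and 27.4 CPM in line 1 and 4.21 and 5.14 CPM in line 2 (log2 fold change -2.57, SE 0.23, adjusted p 0.000406), where line 1 was close to the parental 25.9, 19.3 and 25.7 CPM. With an edited library left out, the adjusted p rose above 0.05 for ITGA2B (0.0666 without 1-2), RASGRP2 (0.0659 without 1-1), SRGN (0.14 without 2-1), GP6 (0.246 without 1-1) and ARHGAP6 (0.242 without 1-2).

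Red cell genes moved in both directions. SLC4A1, the band 3 anion exchanger of the red cell membrane, stood at 0.161 and 0.247 CPM in line 1 and 6.71 and 5.62 CPM in line 2, with the parental 1.004, 1.79 and 3.99 CPM in between (log2 fold change 4.89, SE 0.70, adjusted p 0.00481). TPM1, a tropomyosin, was higher with a log2 fold change of 0.57, and 2 other proteins of the membrane skeleton were lower. TMOD1, tropomodulin, stood at 39.2 and 39.9 CPM in line 1 and 16.3 and 18.7 CPM in line 2 (-1.18). ADD2, beta adducin, stood at 14.5 and 13 CPM in line 1 and 2.73 and 3.09 CPM in line 2 (-2.24). These were 4 of 25 tested genes of the red cell membrane group (16% against 6.54% of all genes). TFR2, the second transferrin receptor, stood at 48.6 and 45.9 CPM in line 1 and 109.8 and 88.7 CPM in line 2, against 94.9, 109 and 109 CPM in parental cells (log2 fold change 1.07, SE 0.16, adjusted p 0.00602), the one member of 13 iron genes to pass. That is 7.69% of the iron genes, and none of 12 heme synthesis enzymes passed. Of 17 erythroid transcription factors, GATA2, which marks early precursors, was lower, at 323 and 333 CPM in line 1 and 184 and 206 CPM in line 2 (-0.75). ZFPM1, the GATA1 cofactor FOG1, was higher, at 27 and 39.3 CPM in line 1 and 91.1 and 80.002 CPM in line 2 (1.37). GATA2 and ZFPM1 made up 11.8% of the factors tested. Leaving out an edited library ended the calls of TPM1 (0.261 without 1-2), TMOD1 (0.116 without 2-1), ADD2 (0.0658 without 2-1), TFR2 (0.0559 without 1-2), GATA2 (0.138 without 2-1) and ZFPM1 (0.198 without 1-1).

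The globins lay lower in line 2 without passing. The fetal globin HBG2 stood at 2664 and 4168 CPM in line 1 and 849 and 1638 CPM in line 2, against 936, 1214 and 2221 CPM in parental cells (log2 fold change -1.46, SE 0.44, adjusted p 0.0925). HBG1 stood at 867 and 1540.4 CPM in line 1 and 365 and 512 CPM in line 2 (-1.46, adjusted p 0.0818). Of 9 globin genes tested 8 had a fold change below 0, with a median of -1.02. The libraries of one line differed by nearly as much: replicate 2 lay above replicate 1 by a median of 0.82 in line 1 and 0.51 in line 2 on the log2 scale. HBG1 and HBG2 are near-identical copies, so the split of reads between them is uncertain.

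**Figure D3:**
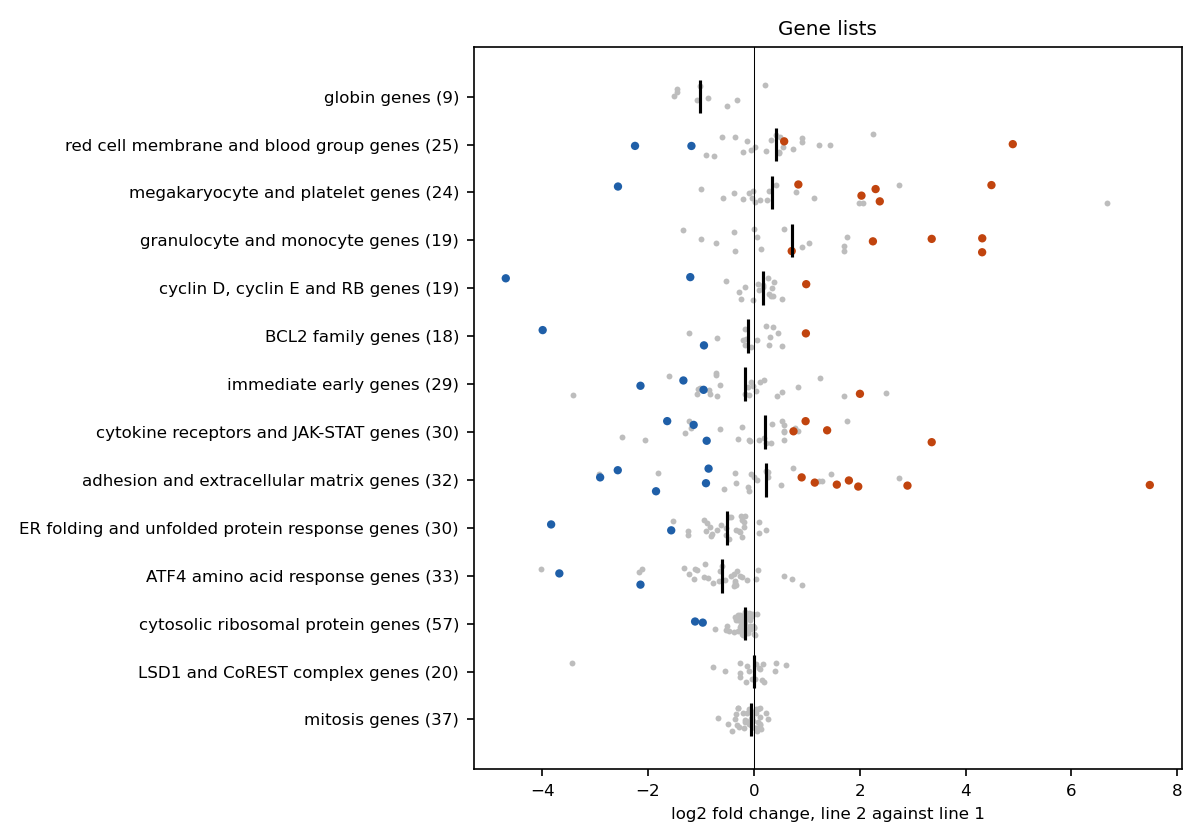
Log2 fold change of line 2 against line 1 for each tested member of 14 gene lists (tested members in brackets); orange and blue points passed at an adjusted p under 0.05, grey points did not, and black bars are list medians. The adhesion list holds 7 higher and 5 lower members, and globins, ER folding and ATF4 genes lie mostly below 0 with few members past the threshold.

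Adhesion and extracellular matrix genes were the list with the highest share of members past the threshold, 12 of 32 tested (37.5% against 6.54% of all genes), in both directions. COL18A1, the collagen that gives endostatin, stood at 129.8 and 133 CPM in line 1 and 368 and 411 CPM in line 2, against 264, 339 and 402 CPM in parental cells (log2 fold change 1.57, SE 0.20, adjusted p 0.00272); it lies on 21q. LAMB1, the laminin beta-1 chain, was higher in line 2, at 13.6 and 10.2 CPM in line 1 and 101 and 77 CPM in line 2 (log2 fold change 2.90, SE 0.23, adjusted p 0.000249). LAMC1, the gamma-1 chain with which it pairs, was lower, at 1.53 and 0.668 CPM in line 1 and 0.178 and 0.102 CPM in line 2 (log2 fold change -2.90, SE 0.71, adjusted p 0.0435). These laminin chains thus moved in opposite directions. MCAM, an adhesion receptor, was higher at 45.2 and 45.8 CPM in line 1 and 87.5 and 115 CPM in line 2, and the tetraspanin CD63 at 63.5 and 58.6 CPM in line 1 and 129 and 99.5 CPM in line 2. SELPLG, the selectin ligand of leukocytes, was higher at 2.48 and 1.11 CPM in line 1 and 9.16 and 4.86 CPM in line 2, and ICAM2, a ligand of leukocyte integrins, at 2.58 and 6.13 CPM in line 1 and 12.9 and 17.4 CPM in line 2. With TSPAN32 these made the 7 higher members. Among the lower, the intermediate filament gene VIM stood at 779 and 723 CPM in line 1 and 399.8 and 430.4 CPM in line 2. The integrin chains ITGAV and ITGB5 stood at 64.6 and 51.4 CPM in line 1 and 32.1 and 29.8 CPM in line 2, and at 22.8 and 22.3 CPM in line 1 and 5.52 and 7.05 CPM in line 2, respectively. COL4A5, a collagen of basement membranes, stood at 25.1 and 26 CPM in line 1 and 4.39 and 4.19 CPM in line 2. COL18A1, LAMB1, COL4A5 and TSPAN32 passed with every edited library left out. Calls were lost for LAMC1 (0.351 without 1-1), MCAM (0.109 without 1-1), CD63 (0.189 without 2-1), SELPLG (0.222 without 2-1), ICAM2 (0.173 without 2-2), VIM (0.0955 without 1-1), ITGAV (0.214 without 1-1) and ITGB5 (0.0607 without 2-1).

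In cytokine signalling, 4 of 30 tested genes were higher and 3 lower (23.3% against 6.54% of all genes). SOCS3, a feedback inhibitor of JAK kinases, stood at 94.5 and 81.2 CPM in line 1 and 29.1 and 27.4 CPM in line 2 (log2 fold change -1.64, SE 0.16, adjusted p 0.000578). The parental 22.3, 20.9 and 23.1 CPM were close to line 2, so that line 1 stood apart. CISH, a feedback inhibitor induced through STAT5, stood at 189 and 119.8 CPM in line 1 and 79.5 and 60.7 CPM in line 2 (log2 fold change -1.14), also highest in line 1. TYK2, a JAK kinase encoded on 19p, stood at 121 and 123 CPM in line 1 and 65.8 and 65.6 CPM in line 2 (-0.89). Higher in line 2, besides CSF2RB, were 3 other receptor chains. IL6ST, the gp130 chain of IL-6 family receptors, had 29.1 and 32.8 CPM in line 1 and 51.4 and 52.5 CPM in line 2. IL18R1, of the IL-18 receptor, had 3.77 and 3.79 CPM in line 1 and 11.8 and 7.87 CPM in line 2, and IFNGR2, of the interferon gamma receptor, encoded on 21q, had 24.4 and 26.4 CPM in line 1 and 50.6 and 49.5 CPM in line 2. Among 29 immediate early genes, FOSL2 was higher and IER2, JUNB and ATF3 were lower (13.8% passed). FOSL2, an AP-1 subunit, stood at 3.47 and 2.03 CPM in line 1 and 13.8 and 8.18 CPM in line 2. IER2 stood at 257 and 262 CPM in line 1 and 102 and 104 CPM in line 2, and JUNB, another AP-1 subunit, at 45.6 and 49.1 CPM in line 1 and 20.5 and 28.6 CPM in line 2; both are genes of 19p. SOCS3 and IER2 passed in each fit without an edited library. The call did not hold in every fit for CISH (0.298 without 1-1), TYK2 (0.0792 without 2-2), IL6ST (0.245 without 1-1), IL18R1 (0.211 without 2-1), IFNGR2 (0.0973 without 1-1), FOSL2 (0.163 without 1-2), JUNB (0.165 without 2-1) and ATF3 (0.181 without 1-1).

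Chromatin lists differed in how many members passed. None of 20 tested genes of the LSD1 and CoREST complexes passed (against 6.54% of all genes), with a median of 0.00, and the member with the highest CPM, GSE1, stood at 412 and 401 CPM in line 1 and 546 and 529 CPM in line 2 (adjusted p 0.144). Among 20 genes of H3K4 methylation 2 passed (10.0%), both lower. SETD7, a lysine methyltransferase, stood at 11.8 and 5.22 CPM in line 1 and 2.16 and 1.35 CPM in line 2, with the parental 55.7, 42.7 and 29.6 CPM above both lines (log2 fold change -2.25, SE 0.44, adjusted p 0.0189). PRDM9, the H3K4 methyltransferase of meiosis, stood at 6.72 and 3.22 CPM in line 1 and 0.384 and 0 CPM in line 2, and parental libraries had 0.126 CPM or less (log2 fold change -4.51, SE 1.00, adjusted p 0.03). Of 22 histone acetylation enzymes KAT6A, of 8p, was higher (0.86), and it alone passed (4.55%). Among 15 DNA methylation genes 3 were lower (20.0%) and none higher, DNMT1 and DNMT3A among them. DNMT1, the maintenance methyltransferase, encoded on 19p, stood at 525 and 627 CPM in line 1 and 332 and 389 CPM in line 2 (-0.68). DNMT3A, a de novo methyltransferase, stood at 36.3 and 31.2 CPM in line 1 and 17.3 and 16.2 CPM in line 2 (-1.01). In at least 1 fit without an edited library the call was lost for SETD7 (0.131 without 2-2), PRDM9 (0.18 without 1-1), KAT6A (0.195 without 1-2), DNMT1 (0.296 without 1-2) and DNMT3A (0.106 without 1-1).

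Imprinted and testis genes included calls in both directions. H19, a maternally expressed RNA, stood at 4.30 and 5.29 CPM in line 1 and 33.3 and 36 CPM in line 2, against 1.90, 7.21 and 1.41 CPM in parental cells, so that line 2 stood apart (log2 fold change 2.85, SE 0.66, adjusted p 0.037). PLAGL1, a paternally expressed zinc finger gene, stood at 18.9 and 15.4 CPM in line 1 and 75 and 64 CPM in line 2 with 86.9, 82.2 and 47.9 CPM in parental cells, so that line 1 stood apart (log2 fold change 2.02, SE 0.28, adjusted p 0.00391). DIRAS3 was lower in line 2, at 2.29 and 1.61 CPM in line 1 and 0.604 and 0.588 CPM in line 2 (-1.70). These were the 3 called among 21 imprinted genes tested (14.3% against 6.54% of all genes). Of 19 cancer-testis genes, all 4 that passed (21.1%) lie on X. On Xp, MAGEB1 was higher at 0 and 0.0247 CPM in line 1 and 1.48 and 1.74 CPM in line 2, and MAGEB2 at 0.484 and 0.247 CPM in line 1 and 2.17 and 1.84 CPM in line 2. On Xq, MAGEC1 was lower at 7.48 and 6.68 CPM in line 1 and 1.44 and 1.61 CPM in line 2, and MAGEC2 at 5.08 and 4.90 CPM in line 1 and 1.13 and 0.665 CPM in line 2. MAGE genes have close relatives, and reads may be split among them. PLAGL1 passed with each edited library left out. In contrast, calls were lost for H19 (0.216 without 1-1), DIRAS3 (0.219 without 1-1), MAGEB1 (0.0535 without 1-1), MAGEB2 (0.257 without 1-2), MAGEC1 (0.0557 without 2-1) and MAGEC2 (0.058 without 2-2).

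Stress lists differed in the sign of their medians, and few of their members passed (6.54% of all genes did). Of 33 ATF4 amino acid response genes 28 had a fold change below 0 (median -0.60, against 0.01 for all genes), and 2 passed (6.06%). STC2, the secreted hormone stanniocalcin 2, stood at 49.9 and 38.2 CPM in line 1 and 4.61 and 2.17 CPM in line 2 (log2 fold change -3.68, SE 0.44, adjusted p 0.00195). The transcription factor ATF3 stood at 42.3 and 36.7 CPM in line 1 and 13.9 and 3.81 CPM in line 2 (log2 fold change -2.14, SE 0.54, adjusted p 0.0498). Of 30 ER folding genes 27 lay below 0 (median -0.50), and 2 passed (6.67%). HERPUD1, of ER-associated degradation, stood at 257 and 145 CPM in line 1 and 85.6 and 50.7 CPM in line 2 (-1.56). ERO1LB, an ER oxidase, stood at 15 and 6.23 CPM in line 1 and 1.03 and 0.409 CPM in line 2 (-3.83). Of 23 heat shock genes 18 lay above 0 (median 0.20), and none passed. The libraries within a line also differed in the first 2 lists. Replicate 1 lay above replicate 2 by a median log2 difference of 0.49 in line 1 and 0.85 in line 2 for ATF4 genes, and of 0.82 and 0.09 for ER folding genes. STC2 and ERO1LB passed with each edited library left out, and calls were lost for ATF3 (0.181 without 1-1) and HERPUD1 (0.186 without 2-2).

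Of 57 cytosolic ribosomal protein genes 54 lay below 0, with a median of -0.17, and 2 passed (3.51% against 6.54% of all genes). Replicate 1 lay above replicate 2 by a median of 0.13 in line 1 and 0.13 in line 2. RPS15, of 19p, stood at 470.4 and 492 CPM in line 1 and 231 and 262 CPM in line 2. Of 25 glycolysis and hypoxia genes 1 was higher and 1 lower (8.00% against 6.54%). ENO2, a glycolytic enolase, was higher in line 2, at 10.3 and 8.21 CPM in line 1 and 34.3 and 39.5 CPM in line 2 (log2 fold change 1.99, SE 0.24, adjusted p 0.00218). NDRG1, a gene induced by hypoxia, was lower, at 0.672 and 0.272 CPM in line 1 and 0 and 0 CPM in line 2, and was under 1 CPM in every library. Of 29 nuclear genes of oxidative phosphorylation, ATP5O of 21q was higher (0.59) and NDUFS7 of 19p lower (-1.07), so 6.90% passed against 6.54%. None of 26 sterol synthesis and 13 mitochondrially encoded genes passed. Of 26 interferon-stimulated genes 2 were higher and 3 lower (19.2% against 6.54%). DDX60, an antiviral helicase, was lower, at 1.08 and 1.24 CPM in line 1 and 0.0275 and 0 CPM in line 2. USP18, which removes ISG15 from proteins, was lower, at 0.672 and 0.247 CPM in line 1 and 0.0137 and 0.0767 CPM in line 2. Both were under 2 CPM in every edited library. The neighbouring genes IFITM1, IFITM2 and IFITM3 of 11p, membrane proteins that restrict virus entry, split. IFITM1 stood at 142 and 173 CPM in line 1 and 93.6 and 75.2 CPM in line 2 (-0.90). IFITM2 stood at 56.4 and 45.7 CPM in line 1 and 94 and 91.5 CPM in line 2 (0.86), and IFITM3 at 2.91 and 2.80 CPM in line 1 and 5.72 and 6.31 CPM in line 2 (1.08). They are close copies, and the split of reads among them is uncertain. PSMB9, an immunoproteasome subunit, stood at 0.0538 and 0.0742 CPM in line 1 and 1.96 and 0.767 CPM in line 2 (4.37). HLA-E, a nonclassical class I molecule, stood at 36.1 and 29.1 CPM in line 1 and 67.2 and 49.9 CPM in line 2 (0.84). These were the 2 of 13 antigen presentation genes that passed (15.4% against 6.54%). ENO2 passed in each fit without an edited library. Calls were lost for RPS15 (0.174 without 2-1), ATP5O (0.331 without 1-1), NDUFS7 (0.242 without 1-1), NDRG1 (0.162 without 2-1), DDX60 (0.129 without 2-2), USP18 (0.265 without 1-1), IFITM1 (0.155 without 2-2), IFITM2 (0.15 without 1-2), IFITM3 (0.264 without 1-1), PSMB9 (0.0942 without 1-1) and HLA-E (0.206 without 1-2).

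Over all 40 gene lists, 78 of 762 tested members passed, 10.2% against 6.54% of all genes, and 39 lay in each direction, where 2.38% of all genes were higher and 4.16% lower. Without 1 edited library the number was 25 to 33. The lists were chosen with earlier results of these data known, so their share of calls is no independent finding. Of all protein-coding genes tested, 8.20% passed. Among the genes that passed with the highest CPM, EEF2 and SMARCA4 were lower and lie on 19p. EEF2, the translocase of protein synthesis, had 5117 and 3907 CPM in line 1 and 2161 and 1606 CPM in line 2, and SMARCA4, an ATPase of chromatin remodelling, had 1048 and 1082 CPM in line 1 and 533 and 607 CPM in line 2. ANXA1, a phospholipid-binding protein, was lower in line 2, at 849.8 and 898 CPM in line 1 and 460.5 and 468 CPM in line 2, and the parental 572, 498 and 466 CPM put line 1 apart. Of the higher genes, the sialomucin SPN had 221 and 258 CPM in line 1 and 538 and 520.0 CPM in line 2. The nucleosome-binding protein HMGN1 of 21q had 262 and 285 CPM in line 1 and 516 and 557 CPM in line 2, and its relative HMGN2 of 1p had 293 and 251 CPM in line 1 and 468 and 495 CPM in line 2. In all 3, both line 2 libraries were above every other library. Calls did not hold without an edited library for EEF2 (0.138 without 2-2), SMARCA4 (0.0917 without 2-1), ANXA1 (0.0787 without 2-1), SPN (0.174 without 1-1), HMGN1 (0.0713 without 1-1) and HMGN2 (0.121 without 1-2).

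The differences were unevenly spread over the chromosomes. Genes were ordered by their annotation. Of 41 arms with at least 50 tested genes, 5 had a median at least 0.15 away from that of all genes. On these 5 the medians of all 4 pairs of libraries taken across the lines also had the same sign. On 19p, 510 of 587 tested genes lay below 0 and the median was -0.74; 163 genes were lower (27.8% against 4.16% of all genes) and 4 higher. Windows took 25 consecutive tested genes with a mean of at least 2 CPM in the edited libraries, and an incomplete last window was dropped. All 15 windows along this arm had a median below 0, between -0.90 and -0.56. Against the parental mean, the median over genes of 19p was -0.03 and -0.03 in the libraries of line 1 and -0.76 and -0.70 in those of line 2, so line 2 stood apart. This arm held 20.5% of all genes lower in line 2.

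On 8p, 21q and Xp, genes were higher in line 2, and there line 1 stood apart from the parental level. The median of 8p was 0.51, with 37 of 212 genes higher (17.5% against 2.38% of all genes) and 7 lower, and the 5 windows ran from 0.48 to 0.65. The median against the parental mean was -0.54 and -0.56 in line 1 and -0.04 and -0.09 in line 2. Of the genes higher on this arm, PCM1, a protein of centriolar satellites, had 357 and 366 CPM in line 1 and 603 and 578 CPM in line 2, with a parental 628, 667 and 515 CPM. KAT6A, a histone acetyltransferase, had 131 and 119 CPM in line 1 and 224 and 229 CPM in line 2, and HMBOX1, a telomere-binding homeobox protein, had 108 and 103 CPM in line 1 and 188 and 172 CPM in line 2. In all 3, line 1 was below every other library. On 21q the median was 0.42, with 13 of 194 genes higher (6.70% against 2.38%) and 5 lower (2.58% against 4.16% of all genes). Its first window, from MIR3648 to LTN1, had a median of -0.21 and the other 4 had 0.32 to 0.66. The values against the parental mean were -0.31 and -0.38 in line 1 and 0.04 and 0.02 in line 2. UBE2G2, a ubiquitin-conjugating enzyme of this arm, stood at 288 and 290.0 CPM in line 1 and 464 and 433 CPM in line 2 and 419, 380.4 and 434 CPM in parental cells.

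**Figure D4:**
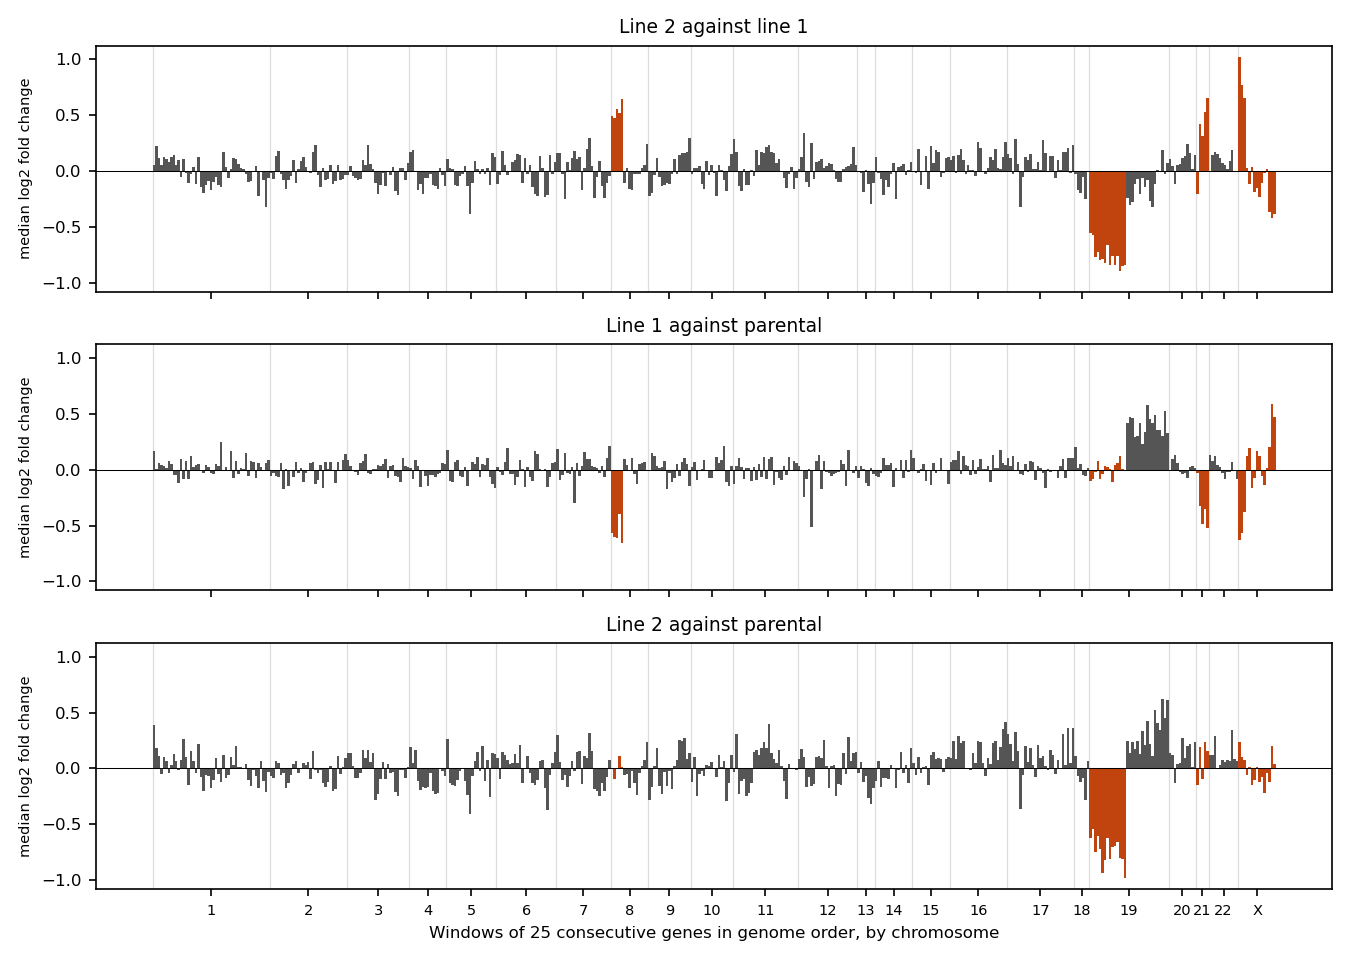
Median log2 fold change in windows of 25 consecutive tested genes with a mean of at least 2 CPM in the edited libraries. Windows are in genome order by chromosome, for line 2 against line 1 and for each line against the parental libraries. The lower panels share the parental libraries, and orange marks 19p, 8p, 21q, Xp and Xq. The 15 windows of 19p are below 0 in line 2, and the windows of 8p and the first 3 of Xp are below 0 in line 1.

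On X the windows shifted most lay towards the ends of the arms. The first 3 windows of Xp, from PLCXD1 to LANCL3, had medians of 1.02, 0.77 and 0.65, and the other 3, from XK to HSD17B10, lay between -0.12 and 0.03. In line 1 the first 3 windows lay below parental cells by medians of 0.63, 0.57 and 0.38. EIF2S3, a subunit of the translation factor eIF2, had 462 and 403 CPM in line 1 and 886 and 686 CPM in line 2, with a parental 828, 754 and 866 CPM. SMS, spermine synthase, had 122 and 136 CPM in line 1 and 242 and 327 CPM in line 2, and PDHA1, of pyruvate dehydrogenase, had 146 and 161 CPM in line 1 and 234 and 322 CPM in line 2. These were the genes higher on Xp with the highest CPM. The last 3 windows of Xq, from ZNF449 to VBP1, had medians of -0.36, -0.43 and -0.39, and lay above parental cells in line 1 by 0.20, 0.59 and 0.47. The other 6 windows of Xq lay between -0.23 and 0.02, and 5 of them were below 0. MPP1, a membrane scaffold of red cells, stood at 627 and 548 CPM in line 1 and 357 and 331 CPM in line 2 with 419.9, 383 and 498 CPM in parental cells. Over whole arms the medians were 0.19 for Xp and -0.19 for Xq.

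**Figure D5:**
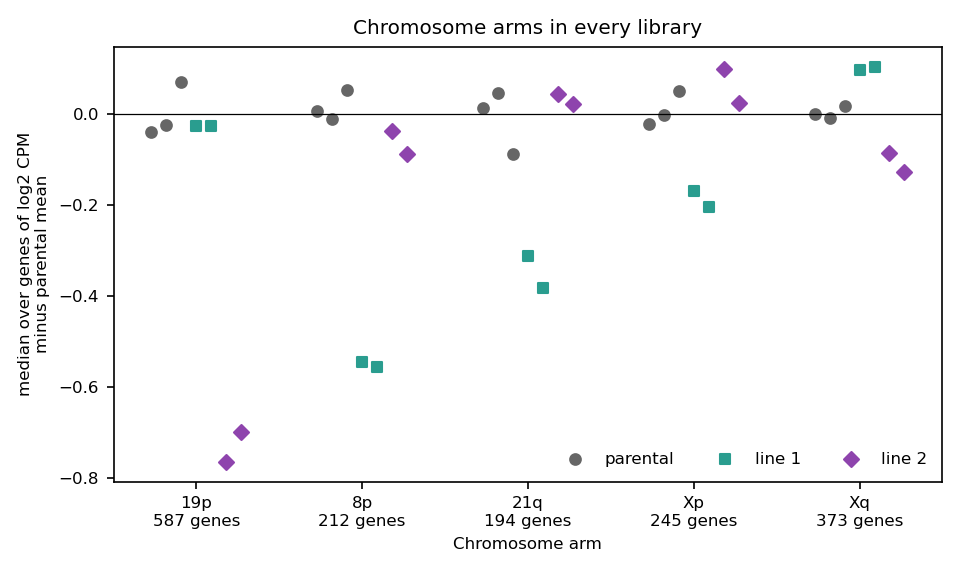
Median over the tested genes of an arm of log2 CPM minus the parental mean, in each of the 7 libraries, for 5 chromosome arms. Both line 2 libraries are low on 19p, both line 1 libraries are low on 8p, 21q and Xp, and libraries of the same line lie close together.

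The other 36 arms had medians between -0.12 and 0.13, and their 411 windows lay between -0.38 and 0.34. Outside the 5 arms 925 of 17487 tested genes passed (5.29%), 349 higher and 576 lower, so most calls lay elsewhere. DNA copy number was not analysed here, and whether the shifts of these arms follow it was not tested. Without 1 edited library, single genes named on these arms lost their call, as was found for PCM1 (0.229 without 1-1), KAT6A (0.195 without 1-2), HMBOX1 (0.124 without 1-2), UBE2G2 (0.23 without 1-1), EIF2S3 (0.152 without 1-2), SMS (0.0955 without 1-1), PDHA1 (0.311 without 2-2) and MPP1 (0.232 without 1-1).

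Away from these arms, some genes that passed were adjacent in the order of tested genes, which skips genes that were not tested. Among 16596 adjacent pairs of tested genes outside the 5 arms, 120 pairs passed in the same direction. On 11p, H19, ASCL2, C11orf21 and TSPAN32 followed one another in this order and were all higher in line 2, though untested genes may lie between them. On 15q, DMXL2, SCG3, LYSMD2 and TMOD2 followed one another among the tested genes and were all lower. SCG3, a protein of secretory granules, stood at 0.619 and 0.569 CPM in line 1 and 0.0137 and 0 CPM in line 2 (log2 fold change -5.73, SE 0.86, adjusted p 0.00598). A run of 6 genes on 7q that ends with PTN, the growth factor pleiotrophin, was lower throughout, but 5 of the 6 are lincRNA, antisense or pseudogene entries. Overlapping and neighbouring genes can share reads, and these runs were picked out after their values were seen.

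Genes of different classes passed at different rates. Of 12645 protein-coding genes 8.20% passed, of 1208 lincRNA genes 7.62%, of 2115 pseudogenes 2.41% and of 1436 antisense genes 2.72%. Outside protein-coding genes, LINC01049 stood at 5.49 and 4.43 CPM in line 1 and 0.0275 and 0.0256 CPM in line 2 (log2 fold change -7.41, SE 0.68, adjusted p 0.000478). RP11-307P5.1 stood at 5.30 and 5.79 CPM in line 1 and 0.0137 and 0.0256 CPM in line 2 (log2 fold change -8.07, SE 0.82, adjusted p 0.000791). In line 1 both were also above the parental libraries. These classes differ in level, and their part in the rates was not tested.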

How the data were processed

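RNA of 7 K562 libraries was compared: 2 of edited line 1, 2 of edited line 2 and 3 of parental cells. The kit for poly-A RNA kept the strand and reads were paired, with 150 cycles, per the labels' protocols. The submitters' processing notes list Bowtie2 2.5.1, Cufflinks 2.2.1, cutadapt 2.5, DESeq2, FastQC 0.11.8, HTSeq 0.11.2, MultiQC 1.7 and STAR 2.7.3a and the builds hg19 and GRCh37; settings and the strand used in counting are not given in the sources used here. The authors deposited raw read counts for 57773 genes and a table of FPKM values, in which 114 repeated identifiers were summed here.

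The counts as deposited went into edgeR 4.0.16 under R 4.3.3: filterByExpr with 3 groups kept 19098 genes, TMM set the scale, and glmQLFit with glmQLFTest was run on all 7 libraries with Benjamini-Hochberg adjustment at 0.05. Standard errors are the size of the log2 fold change over the square root of F. The members, gene lists and tests were chosen with earlier results of these data known. Genes were named by size of fold (12 protein-coding and 4 other genes each way, with at least 2 CPM), by CPM among those that passed, from 0 counts in one line, from each of 40 lists and from each named arm; called list members beyond the first 4 were named after their values were seen.

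Arms come from GENCODE release 29 on GRCh38, used only for gene order; 18258 tested genes were placed. On simulated counts most 4-fold and 8-fold changes were recovered, and where the spread was made to vary from gene to gene the share of unchanged genes among the calls was above the nominal level. Floors of 3 counts cover counting error only. Alternatives were other scalings and filters, DESeq2 1.42.0, limma 3.58.1, FPKM values on the log2 scale, the replicate number as a block and each library left out. Some genes that the naming rule selects are not reported here.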

Additional observations from a re-analysis of the deposited data

Results flagged for a closer look

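In all, 8 named genes passed in both lines against the parental libraries but in opposite directions. The comparisons share the 3 parental libraries. These genes were named because they passed in line 2 against line 1, so that their difference passed is no further result. Higher in line 2 and lower in line 1 than parental cells were CHST3, with log2 fold changes of 3.56 and -5.92 and a difference of 9.47, ANKRD33B, with 2.67 and -4.27 and a difference of 6.94, and COL23A1, with 1.85 and -3.77 and a difference of 5.62.

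Lower in line 2 and higher in line 1 than parental cells were DDX60L, with -3.59 and 2.66 and a difference of -6.25, and GPR126, with -4.39 and 1.34 and a difference of -5.73. Among genes that are not protein-coding the differences were -8.07 for RP11-307P5.1, -7.41 for LINC01049 and -5.40 for RP11-8L2.1, in the same direction.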

How the results depend on the processing

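The count of genes past the threshold, 1249, was 1244 with DESeq2 size factors, 1233 with upper quartile scaling, 1188 with a filter on 2 groups, 934 at a mean of at least 2 CPM, 894 with limma-voom and 1655 with the 4 edited libraries alone. It moved further with no filter (2158, 831 higher and 1327 lower), DESeq2's Wald test (1970, 758 and 1212), a test against a fold of 1.5 (542, 184 and 358), limma on log2(FPKM + 1) (250) or log2(FPKM + 0.1) (316), and ranged from 387 to 2344 with a library left out. With the replicate number as a block in the 4 edited libraries it was 5490, 2518 higher and 2972 lower, and list members that passed were 376 against 78; the labels do not say that the numbers pair the samples, and the correlation across genes of replicate 1 minus replicate 2 between the lines was 0.272. Each of 136 called genes kept its direction in all fits that left out an edited library, and 51 passed in all 4. List members that passed were 25 to 33 in those fits.

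Arm medians kept their sign under every alternative run. Without an edited library they were -0.78 to -0.69 on 19p, 0.32 to 0.47 on 21q, 0.51 to 0.54 on 8p, 0.22 to 0.28 on Xp and -0.26 to -0.17 on Xq. Over the genes that did not pass alone they were -0.56 on 19p, 0.44 on 8p and 0.10 on Xp; over protein-coding genes 0.45 on 21q and -0.23 on Xq; with the replicate block 0.38 on 21q and 0.50 on 8p; and on 8p 0.52 with the filter on 2 groups and 0.53 at 2 CPM. Genes at 0 counts in line 1, 6 in all, were 15 at a line 2 mean of 0.5 CPM and 17 when up to 3 counts were allowed, and 6 to 17 without an edited library. Those at 0 in line 2, 18 in all, were 33, 33 and 16 to 45 in the same order, and 4 at a line 1 mean of 2 CPM. KDM1A, which did not pass, ranged from -0.29 to 0.10 without an edited library, and its sign changed without line 1 replicate 2 (0.03) and line 2 replicate 1 (0.10). In these small moves the cause was not tested. With 2 libraries a line, and 1 where a library is left out, the lone library is taken to vary like the others.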

Other observations

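Genes of 19q, the other arm of chromosome 19, lay above the parental level in both lines. The median of 668 tested genes against the parental mean was 0.41 and 0.40 in the libraries of line 1 and 0.31 and 0.30 in those of line 2. For line 2 against line 1 it was -0.11. PTPRC stood at 135 and 133 CPM in line 1 and 70.5 and 49.8 CPM in line 2 and at 382, 281 and 160.3 CPM in parental cells. It did not pass between the lines (log2 fold change -1.15, adjusted p 0.0915 in edgeR's quasi-likelihood test).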
